A study of Mus musculus with 8 samples.

Results

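The cytosolic ribosomal protein genes of the mouse were followed in stem and progenitor cells sorted from the marrow of healthy mice and of mice with chronic myeloid leukaemia (CML). Members were all genes whose symbol is Rps or Rpl followed by a number, with an optional letter, together with Rpsa, Rplp0, Rplp1 and Rplp2. This rule gave 81 of the 20207 genes in the files. Of these, 77 were core genes of the ribosome, with 31 of the small (40S) subunit and 46 of the large (60S) subunit, and 4 were paralogs (Rps27l, Rpl39l, Rpl3l and Rpl10l). Fau also encodes a ribosomal protein, but as a fusion with a ubiquitin-like part, and lies outside the name rule.

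A cytosolic ribosome joins a small subunit, which reads the mRNA, with a large subunit, which forms the peptide bond, and each carries ribosomal RNA with its own set of proteins, most of them in a single copy. Because the proteins are needed in equal numbers, their genes are usually expressed together at very high levels, and their messages commonly begin with a terminal oligopyrimidine (TOP) tract through which mTORC1 controls their translation. Blood formation is sensitive to their dosage: loss of 1 copy of several of these genes causes Diamond-Blackfan anaemia, an erythroid failure, and loss of RPS14 contributes to the 5q- syndrome. Haematopoietic stem cells (HSCs) are known for a low rate of protein synthesis compared with committed progenitors.

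The 8 libraries came from 3 sorted populations. Both stem cell gates took KLS+ cells (cKit+Lineage-Sca-1+) that lacked CD48 and CD135, and the long-term (LT) cells carried CD150 whereas the short-term (ST) cells did not. KLS- progenitors lack Sca-1. Normal mice gave LT-HSC replicate 1 (2 months old), LT-HSC replicate 2 (6 months old), 1 ST library and 1 KLS- library (both 2 months old). CML-affected mice gave 2 LT-CML libraries, 1 ST library and 1 KLS- library, with no age in the labels. For the littermate and CML-affected mice, the study's methods describe young adults, which the label of 6 months for LT-HSC replicate 2 does not match. According to the study's methods, CML-affected mice carried Tal1-tTA and TRE-BCR-ABL1, so that BCR-ABL1 was switched on in cells with Tal1 promoter activity after doxycycline withdrawal, and littermate controls carried Tal1-tTA alone. The methods give the FVB/N background for these mice, whereas the labels give C57BL/6 for every library. The methods also describe healthy C57BL/6 mice of 2 ages, used for metabolomics. The paper names littermates as the source of the normal RNA libraries, so the origin of the normal libraries cannot be settled here.

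Values are RPKM, that is, reads per kilobase of transcript, scaled to the mapped reads of the library, as deposited by the authors. Depth was an estimated 17.8 to 23.9 M reads per library. Only the LT groups had replicates, and nothing says whether these came from separate mice. The p-values measure only the spread between libraries. Where a fit pooled LT and ST libraries, that spread includes differences between LT and ST cells. The sorted types matched their markers in part: Ly6a (Sca-1) was between 72.4 and 152 RPKM in the 6 stem libraries and 8.16 and 11.7 RPKM in the KLS- libraries, and Slamf1 (CD150) was between 10.7 and 35.5 RPKM in the LT libraries and at most 2.87 RPKM in the others. S100a8, a neutrophil granule gene, differed between LT replicates and was 214 RPKM in LT-HSC replicate 1, 1802 RPKM in LT-HSC replicate 2, 93.8 RPKM in LT-CML replicate 1 and 589 RPKM in LT-CML replicate 2. Replicates 2 of both LT groups therefore held more of it, and results are also given without them.

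The start of the message is shown for 6 core genes in which an annotated start opens directly on a TOP tract, and for Rps16 and Rps27l, on which later results turn and in which no annotated start does so. Each window runs 5′ to 3′ on the gene's strand from 10 bases before to 20 bases from the start site of GENCODE M1 on mm9, and capitals mark the pyrimidine run that begins with C at the start site.
Rpl32 (chr6:115758746-115758775, minus strand): gccgccgcctCTTCCTTCTTCCTCggcgct
Rps24 (chr14:25309930-25309959, plus strand): gtgagcggtcCTCTTTTCCTCCTCTCCagc
Rps3 (chr7:106632142-106632171, minus strand): cgagccacttCCTTTCCTTTCagcggcgcg
Rps2 (chr17:24857045-24857074, plus strand): gcgcctccctCTTCTTCTTCTTCgggagaa
Rpl10 (chrX:71516186-71516215, plus strand): gtgggagcgtCTCTTTTCCTCTggcgcggt
Rpl30 (chr15:34372958-34372987, minus strand): ggagctccttCCTTTCTCgctccccggcca
Rps16 (chr7:29135661-29135690, plus strand): tcccctctcaggcttcgacgtcagccgtaa
Rps27l (chr9:66793883-66793912, plus strand): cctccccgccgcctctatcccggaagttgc

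In these windows the run was 17 bases long in Rps24, 14 in Rpl32, 13 in Rps2, 12 in Rpl10, 11 in Rps3 and 8 in Rpl30. Of the 76 core genes matched to the annotation (Rpl41 was not), 16 (21.1%) had a start that opens with C and at least 4 further C or T, against 903 of 22378 coding genes (4.0%). Where several starts were annotated, any of them could count, and an annotated start a few bases off hides a tract. In promoter windows of RefSeq (GRCm38.p6, 250 bases before to 50 after the start, both strands), 56 core genes were matched. The ETS-factor word CCGGAAG was in 23 of them (41.1%) and in 9.9% of all 27025 genes, and the SP1 word GGGCGG in 60.7% against 38.2%. The YY1 word AAGATGG was in 16.1% against 7.3%, the E-box CACGTG in 10.7% against 8.1%, and the TATA word TATAAA in 10.7% against 15.7%. Where a gene had several promoters, any of them could count. A word in a promoter is a match of letters, not a bound site.

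The ribosomal protein messages had high RPKM in every library. They held between 35 and 43 of the 50 genes with the highest RPKM in each library. Summed over the 81 genes, they reached 105224 and 117331 RPKM in the LT-HSC replicates, 111644 RPKM in normal ST cells, 117356 and 91964 RPKM in the LT-CML replicates, 115791 RPKM in CML ST cells, and 115114 and 128642 RPKM in normal and CML KLS- cells. The CML KLS- library was highest and LT-CML replicate 2 lowest, while normal and CML stem libraries overlapped.

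**Figure D1:**
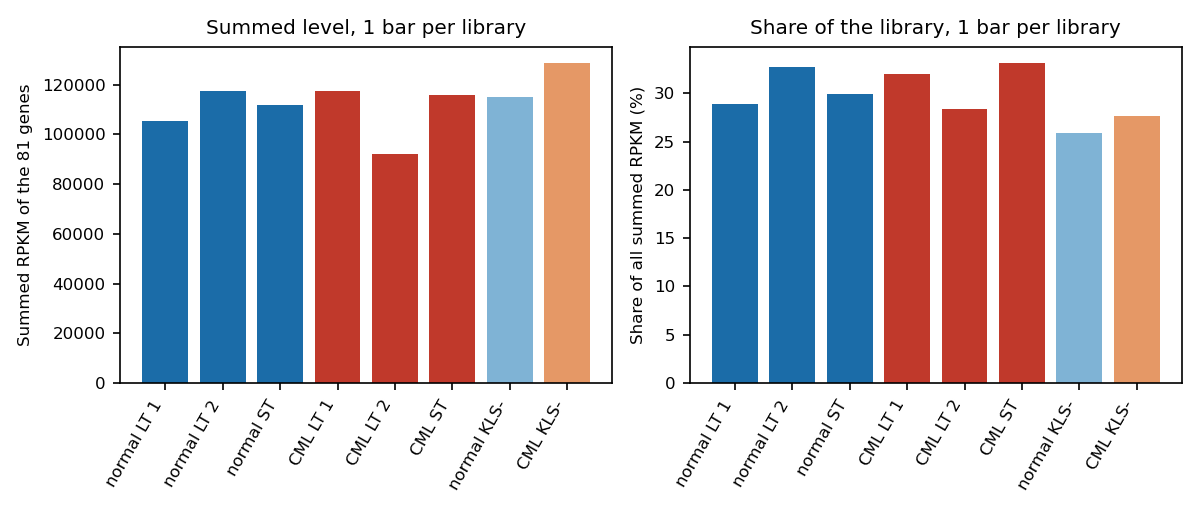
Summed RPKM of the 81 ribosomal protein genes (left) and their share of all summed RPKM in percent (right), 1 bar per library. CML LT replicate 2 has the lowest sum, 91964 RPKM, and the KLS- libraries have the lowest shares, 25.9% and 27.6%.

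As a share of all summed RPKM, the genes took 30.5% ± 2.0 (SD, n = 3) in normal stem libraries and 31.2% ± 2.5 (SD, n = 3) in CML stem libraries. RPKM is divided by transcript length, so this is not a share of reads. The share was 25.9% in the normal KLS- library and 27.6% in the CML KLS- library, below the lowest stem library (28.4%). The summed level of the same genes was nevertheless 1.11 times as high in KLS- as in stem libraries, while the sum over all genes was 1.28 times as high. In bulk RNA, fewer cells of a type and less RNA per cell cannot be told apart, and RPKM gives no amount per cell. The ratio of small-subunit to large-subunit sums was between 0.802 and 0.856 in the stem libraries and 0.778 and 0.758 in the normal and CML KLS- libraries.

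Levels spread widely between the genes although most of their proteins are used in equal numbers. By mean RPKM over the 8 libraries, 17 genes were at 2000 or above, 32 between 1000 and 2000, 21 between 200 and 1000, 8 between 1 and 200, and 3 under 1. The 5 highest were Rpl32, Rpl41, Rps27, Rps18 and Rps19, with means from 3506 to 4847 RPKM. Rpl32 was between 3711 and 5562 RPKM and Rpl41, which encodes the smallest ribosomal protein, between 3884 and 6578 RPKM, so the order of these neighbours is within the spread between libraries. Rps19, the gene most often mutated in Diamond-Blackfan anaemia, was between 2917 and 3762 RPKM.

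**Figure D2:**
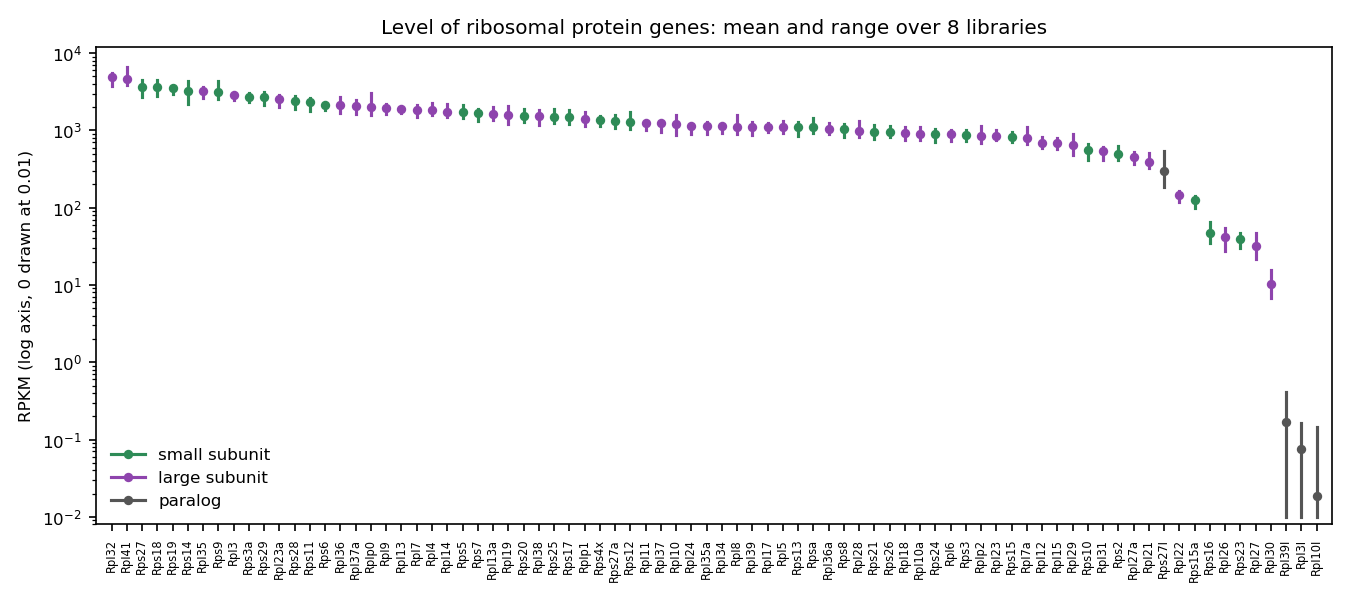
Mean (point) and lowest to highest library (line) of 80 of the 81 genes in RPKM on a log axis, ordered by mean, for small-subunit genes, large-subunit genes and the 4 paralogs. Values of 0 are drawn at 0.01, 7 of the core genes drawn lie under 200 RPKM, and 3 paralogs lie under 1 RPKM.

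Of the 8 core genes under 200 RPKM, 7 had means of 10.2 RPKM (Rpl30), 32.1 (Rpl27), 39.8 (Rps23), 41.6 (Rpl26), 47.6 (Rps16), 126 (Rps15a) and 148 (Rpl22). Each was low in all 8 libraries; Rpl30 ranged only from 6.69 to 15.8 RPKM. Reads from near-identical processed copies can be split or dropped, and the counting rule for them is not given in the sources used here, so levels of these genes are uncertain. In mm9, an exact second copy was found for 79.5% of the 100-base windows of the Rps16 message, 89.96% of Rps23, 56.4% of Rpl27, 34.2% of Rpl30 and 25.5% of Rpl26. The median was 30.8% for the 8 low genes and 41.2% for the other 68 core genes, and Rps27 reached 99.6% at 3685 RPKM. The part of such copies in the low levels was not tested.

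Of the 4 paralogs, Rps27l, a p53-responsive relative of Rps27, was expressed at between 186 and 540 RPKM. The testis-associated Rpl10l and Rpl39l and the muscle-associated Rpl3l were near 0. Rpl10l had an estimated 3 reads in LT-HSC replicate 1 and was listed at 0 in the other 7 libraries. Rpl39l was between 0 and 0.409 RPKM, or at most 6.19 estimated reads, and Rpl3l between 0 and 0.162 RPKM, or at most 4.61. Their core counterparts Rpl10, Rpl39 and Rpl3 had means of 1213, 1108 and 2851 RPKM. Rpl3l and Rpl10l did not exceed a total of 1 RPKM and were not tested, so 79 of the 81 genes entered the tests below.

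Between replicates of the same group, the genes moved together. LT-CML replicate 2 was below replicate 1 in 77 of the 78 genes with a mean of at least 1 RPKM, with a median log2 difference of -0.35, against -0.09 over all genes. LT-HSC replicate 2 was above replicate 1 in 69 of 78, with a median log2 difference of 0.14. The order of the genes was nearly the same, with Pearson correlations of 0.998 and 0.996 across the 78 genes, which are not independent replicates. Thus LT-CML replicate 2 stood apart by the level of the whole set.

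The comparison of 3 CML stem libraries (2 LT and 1 ST) with 3 normal ones asks whether the leukaemic stem cells differ from normal HSCs. No member of the 79 passed the threshold of an adjusted p of 0.05 in limma with Benjamini-Hochberg adjustment over 12561 genes, in which 2.34% of all genes did, and 2 members had an unadjusted p under 0.05. The median log2 difference of the members was -0.07, with 25 of 79 above 0, beside -0.04 over all genes. The sign of the member median was not stable: it was 0.04 without LT-CML replicate 2 and 0.02 under quantile normalization, and again no member passed. With cell type as a covariate, 543 of all genes passed instead of 294, and still no member.

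The lowest log2 difference was that of Rps14, a small-subunit protein whose human gene is lost in the 5q- syndrome. Its RPKM was 3309, 4363 and 3642 in normal LT replicates 1 and 2 and ST, and 3075, 2222 and 3131 in the corresponding CML libraries. All CML values were below all normal values, yet the log2 difference of -0.43 (SE 0.18, adjusted p = 0.380 from limma; 0.131 to 0.627 under the alternatives) did not pass. In the KLS- libraries, normal and CML values were nearly equal at 3219 and 3166 RPKM.

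Rps16, also of the small subunit, was 49.0, 49.0 and 50.7 RPKM in normal stem libraries and 43.2, 35.3 and 36.0 RPKM in CML stem libraries. The groups did not overlap, and the log2 difference was -0.37 (SE 0.13, adjusted p = 0.272 from limma). Rpl26, at the end of the exit tunnel, was 38.4, 50.3 and 44.7 RPKM against 37.8, 27.8 and 38.8 RPKM, with overlap between the groups and a log2 difference of -0.35 (SE 0.18, adjusted p = 0.482 from limma). Rps23, near the decoding centre, and Rpl27 followed with log2 differences of -0.32 and -0.31. These 4 genes are all among the 8 core genes under 200 RPKM, and the copies described above leave their levels uncertain.

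**Figure D3:**
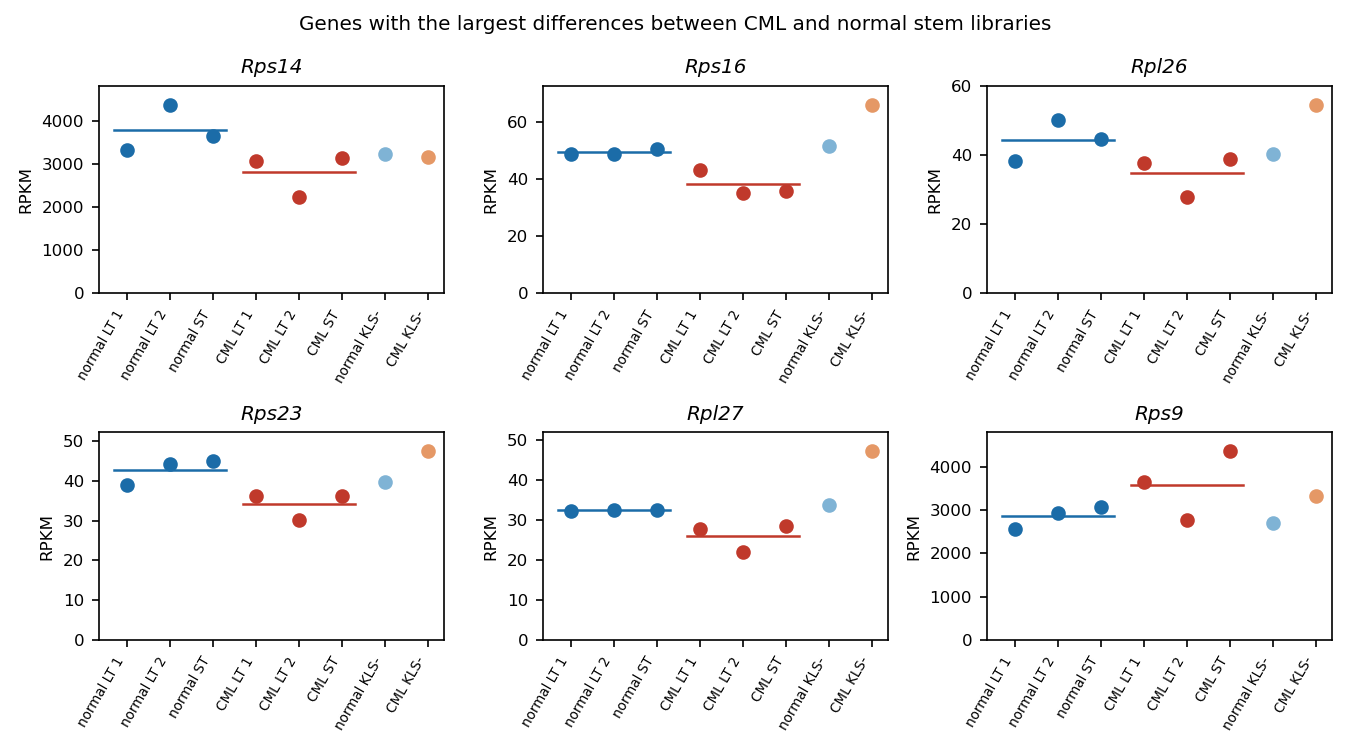
RPKM of 6 genes in each of the 8 libraries, with lines at the means of the 3 normal and the 3 CML stem libraries. Rps14, Rps16, Rps23 and Rpl27 are lower in each CML stem library than in each normal one, Rpl26 overlaps, and Rps9 is highest in CML ST cells at 4363 RPKM.

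The highest log2 difference was that of Rps9, at 2561, 2928 and 3084 RPKM in normal and 3657, 2767 and 4363 RPKM in CML stem libraries. Its groups overlapped through LT-CML replicate 2, and the log2 difference was 0.31 (SE 0.18, adjusted p = 0.565 from limma). Rpl36 (0.23) and the stalk protein gene Rplp0 (0.20) came next. In all, 8 members were lower in every CML stem library than in every normal one (Rps14, Rps16, Rps23, Rpl27, Rpl12, Rpl13, Rps29 and Rps3), or 10.1% of 79, beside 11.4% of all genes, and 0 were higher in every one, beside 6.92% of all genes.

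Markers of other cells also moved in this comparison. The summed RPKM of 12 erythroid markers was between 1305 and 1578 in normal and between 533 and 1112 in CML stem libraries, with 1 of 9 tested markers called lower (Hbb-b2, log2 difference -3.46) and Hba-a1, Hba-a2 and Hbb-bh1 at 0 throughout. The summed neutrophil and monocyte markers ran from 254 to 4045 RPKM in normal and from 322 to 2716 RPKM in CML stem libraries, with 0 of 10 called. Their part in the member values was not tested. Without both LT replicates 2, chosen after seeing the data, no member passed and the median log2 difference was 0.08.

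The LT populations alone were compared next (2 against 2), with the spread taken from the LT replicates, as no other group had any. No member passed in limma, beside 1.73% of all genes, and 0 had an unadjusted p under 0.05. The median was -0.11 on the log2 scale, with 16 of 79 above 0. Rps14 (-0.54, SE 0.25), Rpl26 (-0.43) and Rpl27 (-0.37) were lowest, and Rps9 (0.22), Rpl39l (0.17) and Rplp0 (0.15) highest. Without LT-CML replicate 1 the median was -0.28 and without LT-CML replicate 2 it was 0.07, so the sign depends on that replicate. Under quantile normalization the median was near 0. On the deposited scale, 2 of 9 erythroid, 1 of 8 lymphoid and 1 of 5 megakaryocyte markers were called lower in LT-CML cells. Of 9 stem cell and sorting markers, 1 was called higher. It was Flt3, which encodes CD135, and both stem cell gates excluded CD135. Neutrophil and monocyte markers had a median of -0.81 with 0 of 10 called. The part of all these markers in the member values was not tested.

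Of 6 tested genes with related names outside the rule, 1 passed between CML and normal stem cells. Rps4y2, a relative of the X-linked Rps4x by name that lies at chr6:148303178-148304120 in mm9, was 13.6, 6.10 and 11.5 RPKM in normal and 2.62, 2.80 and 1.31 RPKM in CML stem libraries. The log2 difference was -1.79 (SE 0.31, adjusted p = 0.0306 from limma), and all CML values lay below all normal ones. Leaving out any single library other than LT-HSC replicate 2 ended the call, as did scaling to the member median (adjusted p = 0.0550) and using no filter (adjusted p = 0.178). Rps4x itself, at a log2 difference of 0.05, did not pass.

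The next comparison asks how committed KLS- progenitors differ from stem cells, with disease as a covariate (2 against 6 libraries). In limma, 15 of 79 members were higher in KLS- cells and 0 were lower. That is 19.0% of the members, beside 19.0% of all genes called higher, and 0 beside 22.7% called lower. The median log2 difference of the members was 0.19, with 63 of 79 above 0, while the median of all genes was -0.08; under quantile normalization the member median was -0.18.

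**Figure D4:**
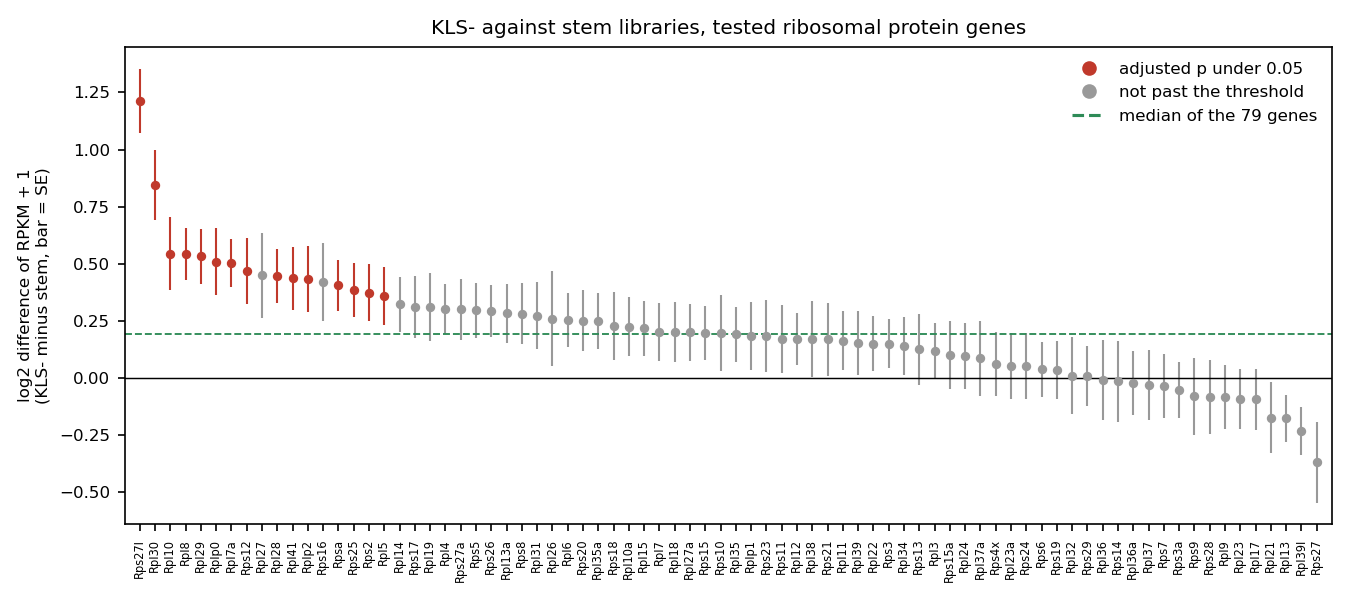
Log2 difference of RPKM + 1 between 2 KLS- and 6 stem libraries for 78 of the 79 tested genes, with its standard error, ordered by size. Rps27l (1.21) and Rpl30 (0.84) stand above the others, 15 genes pass an adjusted p of 0.05, and the median of the 79 is 0.19 (-0.18 under quantile normalization).

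The largest rise was that of the paralog Rps27l. It was 255.7, 230, 216, 241, 201 and 186 RPKM in the 6 stem libraries (normal LT 1 and 2, normal ST, CML LT 1 and 2, CML ST) and 486 and 540 RPKM in normal and CML KLS- cells. Both KLS- values were far above every stem value, with a log2 difference of 1.21 (SE 0.14, adjusted p = 0.000496 from limma), and the call held under all 18 alternatives. Its core relative Rps27, at 3502, 4373, 4001, 4136, 2958 and 4490 RPKM in the same stem libraries, was 2730 and 3293 RPKM in KLS- cells. Rps27 had the lowest value of all members (log2 difference -0.37, SE 0.18, adjusted p = 0.122), with 1 stem library, LT-CML replicate 2, inside the KLS- range.

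Rpl30, a large-subunit protein with the lowest level of the core set, was 7.82, 10.7, 8.71, 8.19, 6.69 and 7.86 RPKM in the stem libraries and 15.8 and 15.4 RPKM in KLS- cells. Its level is uncertain, as 34.2% of its 100-base windows have an exact copy elsewhere. The groups were separate, with a log2 difference of 0.84 (SE 0.15, adjusted p = 0.00328 from limma). The call held under 17 of 18 alternatives and was lost without the CML KLS- library (adjusted p = 0.0693).

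Of the stalk, through which the large subunit recruits translation factors, 2 of 3 genes rose, beside 19.0% of all genes. Rplp0, its base, was 1599, 1608, 1772, 2006, 1576 and 2178 RPKM in the stem libraries and 2105 and 3039 RPKM in normal and CML KLS- cells. CML ST cells thus lay inside the KLS- range, and the log2 difference was 0.51 (SE 0.15, adjusted p = 0.0235 from limma). Rplp2 rose by 0.43 (SE 0.14, adjusted p = 0.0385), while Rplp1 had a difference of 0.18 (adjusted p = 0.340). The call on Rplp2 was lost under 10 of 18 alternatives, and when scaled to the member median 1 of the 3 stalk genes, Rplp0, passed.

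Rpl5 and Rpl11 bind the 5S ribosomal RNA and, when free of ribosomes, the p53 regulator Mdm2. Rpl5 rose by 0.36 on the log2 scale (SE 0.13, adjusted p = 0.0470 from limma), from between 937 and 1212 RPKM in stem libraries to 1322 and 1320 RPKM. Rpl11 was between 1009 and 1346 RPKM in stem libraries and 1301 and 1379 RPKM in KLS- cells, with a difference of 0.16 that did not pass. The call on Rpl5 was lost under 11 of 18 alternatives.

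None of the 3 genes whose proteins line the peptide exit tunnel passed, and they ran from -0.09 (Rpl17) over 0.15 (Rpl39) to 0.30 (Rpl4). Among 5 genes around the end of the tunnel (Rpl19, Rpl23a, Rpl26, Rpl31 and Rpl35), 0 passed and the median was 0.26. Of 5 small-subunit genes at the entry and exit of the mRNA path, 2 rose, beside 19.0% of all genes. They were Rpsa, the laminin receptor protein (0.41, SE 0.11, adjusted p = 0.0191 from limma), and Rps2 (0.37, SE 0.13, adjusted p = 0.0413). Rps2 was between 411 and 506 RPKM in stem libraries and 548 and 634 RPKM in KLS- cells, without overlap. Its call was lost under 12 of 18 alternatives, and under quantile normalization its value turned to -0.17.

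The other genes that rose were Rpl10, Rpl8, Rpl29, Rpl7a, Rps12, Rpl28, Rpl41 and Rps25. Rpl10, a large-subunit protein that joins late in assembly, was 996, 1055, 1287, 1124, 861 and 1225 RPKM in the stem libraries and 1571 and 1586 RPKM in KLS- cells, with a log2 difference of 0.54 (SE 0.16, adjusted p = 0.0243). Rpl8, of the peptidyl transferase region, rose from between 903 and 1088 RPKM to 1356 and 1572 RPKM (0.54, SE 0.11, adjusted p = 0.00608). Every one of these 8 genes was higher in both KLS- libraries than in all 6 stem libraries. Their log2 differences ran from 0.38 (Rps25) to 0.54. The calls on Rps12 and Rps25 were each lost under 9 of 18 alternatives and that on Rpl41 under 8, against 2 each for Rpl8 and Rpl7a.

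By subunit, 4 of 31 small-subunit (12.9%) and 10 of 46 large-subunit genes (21.7%) rose, beside 19.0% of all genes. Their median log2 differences were 0.17 and 0.20. Of the 18 genes mutated in Diamond-Blackfan anaemia, 1 rose (Rpl5, or 5.56%) and 0 fell, beside 19.0% and 22.7% of all genes. Their range was from -0.37 (Rps27) to 0.45 (Rpl27) and their median 0.19. Rps19 had a difference of 0.04 and Rps6, whose phosphorylated protein is read as mTORC1 output, also 0.04. Of the 7 genes with other known roles (Rps6, Rps14, Rpl22, Rpl13a, Rpl10a, Rpl38 and Rps4x), 0 passed. Among the matched core genes, TOP starts were annotated for 3 of 13 that rose (23.1%) and for 13 of 63 others (20.6%).

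Without regard to the test, 29 members were higher in both KLS- libraries than in all stem libraries, or 36.7% of 79, beside 21.9% of all genes. Only Rpl13 and Rpl39l were lower in both, or 2.53%, beside 27.7% of all genes. Rpl13 was between 1762 and 2075 RPKM in the stem libraries and 1690 and 1749 RPKM in KLS- cells, with a log2 difference of -0.18 that did not pass. Rpl39l rests on at most 6.19 estimated reads. The lowest values after Rps27 were those of Rpl39l (-0.23), Rpl13 and Rpl21 (-0.17).

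Which members were called depended on the libraries and on the scaling. Leaving out the CML KLS- library moved the member median from 0.19 to 0.08, and leaving out the normal one moved it to 0.31. The median over all genes was then -0.08 and -0.06. Without LT-CML replicate 2, 18 members were higher and 1 lower, beside 4914 of 12561 genes called in either direction (5231 in the main fit). Upper-quartile scaling gave 7 higher, median-ratio scaling 29 higher, and quantile normalization 3 higher and 25 lower with a member median of -0.18. Over all genes, calls in either direction were 5373, 5468 and 4082 in the same order. Quantile normalization gives each library the same distribution, and these genes hold most of its upper end. The member median was 0.08 with upper-quartile and 0.29 with median-ratio scaling, so the direction for the set turned under quantile normalization. Why it turned was not tested. Rps27l and Rpl30 passed as higher under each scaling.

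To compare the genes with each other, each library was also scaled to the same median over the members, an alternative chosen after seeing the data. Then 7 members were higher in KLS- cells (Rps27l, Rpl30, Rpl10, Rpl8, Rpl29, Rplp0 and Rpl7a), beside 10.7% of all genes, and 6 were lower (Rps27, Rpl13, Rpl17, Rpl9, Rps28 and Rps3a), beside 26.3%. All 7 were among the 15 above. Under the same scaling, Rps27 had a log2 difference of -0.55 (SE 0.09, adjusted p = 0.00222 from limma) and Rpl13 of -0.36 (SE 0.09, adjusted p = 0.0144). Between CML and normal stem libraries no member passed under this scaling, with 12 members higher (15.2%, beside 9.22% of all genes) and 10 lower (12.7%, beside 6.59%) in every CML library.

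Other genes of ribosome production had higher median log2 differences between KLS- and stem cells than the ribosomal protein genes. Of 35 biogenesis genes, which process ribosomal RNA and assemble the subunits, 25 rose and 0 fell, with a median log2 difference of 0.70. The largest rises were those of Mrto4 (1.36), a stalk assembly factor, and Nhp2 (1.27), a box H/ACA particle protein. Of 13 genes of RNA polymerase I, 6 rose, led by Polr1b (0.81) and Polr1a (0.72), and the call on Polr1a was lost under 12 of 18 alternatives. Among 75 mitochondrial ribosomal protein genes, 61 rose and 0 fell, with a median of 0.74 and the largest rises in Mrpl12 (1.19) and Mrpl18.

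**Figure D5:**
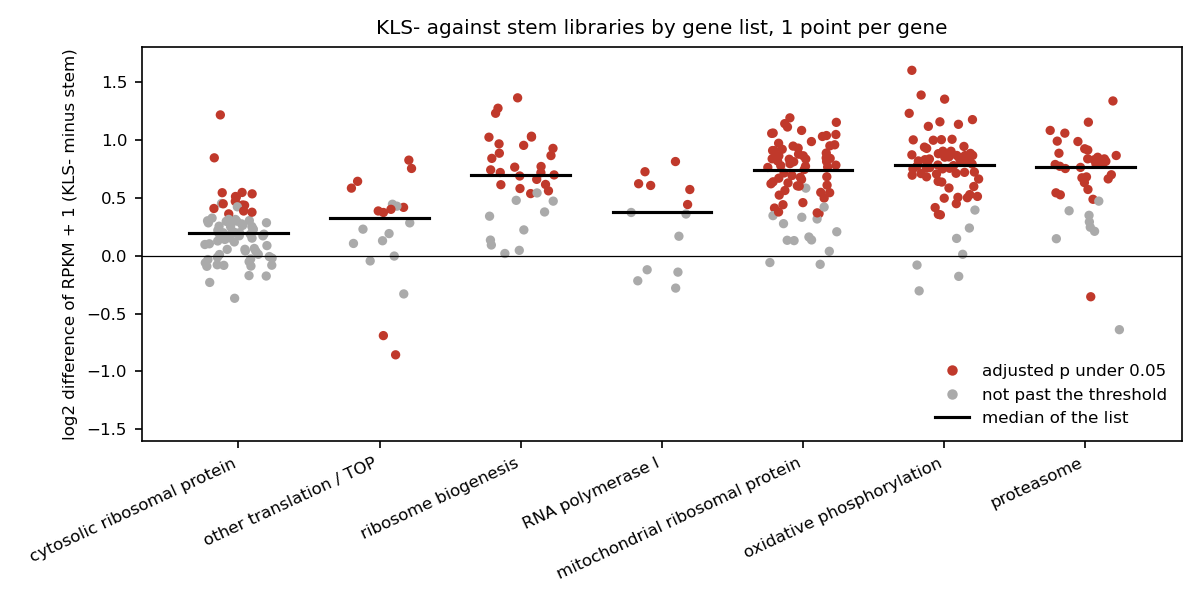
Log2 difference of RPKM + 1 between KLS- and stem libraries, 1 point per tested gene, for 7 gene lists, with the median of each list as a line. The median is 0.19 for cytosolic ribosomal protein genes (-0.18 under quantile normalization), 0.70 for biogenesis genes and 0.74 for mitochondrial ribosomal protein genes.

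Other housekeeping genes, many of them short and abundant, were set beside these. Of 71 nuclear oxidative phosphorylation genes, 64 rose and 0 fell (median 0.78, with Cox6a2 at 1.60 and Uqcrq at 1.39), and of 39 proteasome genes 30 rose and 1, Psmb11 (-0.36), fell (median 0.76, with Psmd13 highest at 1.33). In summed RPKM, KLS- cells held 1.70 times the mitochondrial ribosomal protein level of stem cells, 1.67 times the biogenesis level and 1.11 times the cytosolic ribosomal protein level. Differences between these lists were not tested. When scaled to the member median, 11 of 35 biogenesis genes, 0 of 13 RNA polymerase I genes, 41 of 75 mitochondrial ribosomal protein genes, 52 of 71 oxidative phosphorylation genes and 22 of 39 proteasome genes were higher. The call on Psmb11 was lost under 11 of 18 alternatives.

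Of 20 other translation genes, many with TOP messages, 8 rose and 2 fell (median 0.33). Npm1, a nucleolar chaperone (0.82), and the elongation factor subunit gene Eef1g (0.75) rose most, and Eif4a2 (-0.86) and Tpt1 (-0.69) fell. Of 14 regulators, 4 rose and 3 fell. Rps6ka1, a kinase of the RSK family, and Myc (0.75) rose, and Mycn (-3.06) and Rps6ka3 (-0.92) fell. The call on Myc was lost under 12 of 18 alternatives, and that on Mycn under 0. When scaled to the member median, 4 of 20 translation genes and 1 of 14 regulators were higher.

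Genes with ribosomal protein names outside the rule were also followed. Rpl36al, a paralog of Rpl36a, was between 281 and 359 RPKM in stem libraries and 665 and 603 RPKM in KLS- cells, and rose by 0.98 on the log2 scale (SE 0.12, adjusted p = 0.000717 from limma). The call held under all 18 alternatives. Gnb2l1, which encodes the small-subunit protein RACK1, rose by 0.55, and Rpl7l1 by 0.49. Fau had a difference of 0.18 that did not pass.

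The cell types of the sorts moved with this comparison. Summed neutrophil and monocyte markers were between 254 and 4045 RPKM in stem libraries and 9515 and 15588 RPKM in KLS- cells (4 of 10 markers called higher, with Mpo at 6.57 and Ctsg at 5.91 on the log2 scale). The granule genes Camp, Ltf, Ngp and S100a9 of the same list had negative values that did not pass, from -1.31 (S100a9) to -2.11 (Ngp). Erythroid markers rose in 3 of 9 (Car1 5.97 the highest), with values of -0.47 for Hbb-b1 and -0.85 for Hbb-b2 that did not pass. Mast cell markers rose in 4 of 5 (Mcpt8 3.82, Prss34 3.07) and cell cycle genes in 4 of 7 (Mcm5 1.65, Ccnb1 1.49), with 1 of 7 higher when scaled to the member median. Of the stem cell and sorting markers, 5 of 9 fell (Hlf -4.08, Procr -4.03) and Cd48, which both stem cell gates excluded, rose (2.87). Megakaryocyte markers fell in 2 of 5 (Gp9 -2.20, Ppbp -1.35), Lck (-1.37) alone fell among 8 lymphoid markers, and of 9 handling response genes 5 fell (Egr1 -3.19, Junb -1.91) and Hspa1b rose (0.68), a call lost under 13 of 17 alternatives. The call on Ccnb1 was lost under 6 of 18. Their part in the member values was not tested.

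The effect of disease in KLS- cells was then set against that in stem cells. CML KLS- cells were above normal KLS- cells in 67 of 78 members, with a median log2 difference of 0.15, from 1 library each and therefore with no replicate check. The interaction was above 0 in 72 of 79 members, with a median of 0.20 beside 0.03 over all genes. No member passed in limma, beside 0.00796% of all genes, and 2 had an unadjusted p under 0.05. Without LT-CML replicate 2 the median was 0.09. Scaled to the member median it was -0.03, but that scaling brings the median of the members near 0 by construction and cannot check it.

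The largest interaction terms were those of Rpl27 (0.78, SE 0.29), Rpl26 (0.78, SE 0.35) and Rps16 (0.72, SE 0.26), each with an adjusted p of 1 from limma. Rpl27 was 32.2, 32.4 and 32.6 RPKM in normal and 27.9, 21.9 and 28.6 RPKM in CML stem libraries, but 33.8 and 47.3 RPKM in normal and CML KLS- cells. Rps16 was 51.7 and 66.0 RPKM in normal and CML KLS- cells. Rpl27 and Rps16 were therefore lower in each CML stem library and higher in the 1 CML KLS- library than in their normal counterparts, whereas Rpl26 overlapped between the stem groups. Rpl27, Rpl26 and Rps16 all lie under 200 RPKM, and the copies described above leave their levels uncertain. The lowest terms were those of Rpl39l (-0.20), Rpl4 (-0.13) and Rpl5 (-0.11).

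Between ST and LT stem cells, with disease as a covariate (2 against 4 libraries), no member passed in limma, beside 4.08% of all genes, and 0 had an unadjusted p under 0.05. The median log2 difference was 0.06, with 54 of 79 above 0. It was -0.02 without LT-CML replicate 2 and -0.01 without the CML ST library. Rpl10 (0.32, SE 0.15) and Rps9 (0.31, SE 0.16) were highest, and Rps27l (-0.20), Rpl21 (-0.20) and Rpl41 (-0.15) lowest.

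Among the other lists, cell cycle genes fell in ST cells (4 of 7, Mki67 -1.67 and Birc5 -1.83), megakaryocyte markers fell in 4 of 5 (Pf4 -4.14, Itga2b -2.30), and Rps6ka1 rose (0.83). Of the stem cell and sorting markers, 4 of 9 rose (Flt3 3.04, Cd34 1.78) and Slamf1, on which the sort was gated, fell (-2.83). Flt3 encodes CD135, which both stem cell gates excluded. Gata1 (-2.77) and Epor (-1.19) of the erythroid markers fell and Lck (0.88) rose. When scaled to the member median, the rises of Rps6ka1 and Lck did not pass and 2 of 9 stem cell and sorting markers were higher. In the same libraries the summed level of the ribosomal protein genes was 111644 and 115791 RPKM in ST cells and between 91964 and 117356 RPKM in LT cells, with ST inside the LT range.

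Across the 8 libraries, the mean log2 level of the 78 members with a mean of at least 1 RPKM ran from 9.61 in LT-CML replicate 2 to 10.1 in CML KLS- cells. Of 9955 genes ranked, the profiles nearest to it were those of Dcun1d5 (r = 0.966), Tm7sf2 (r = 0.944) and Pdcd11 (r = 0.938), Pearson correlations over 8 libraries that share their depth and scaling. Dcun1d5 was lowest in LT-CML replicate 2 (12.2 RPKM) and highest in CML KLS- cells (19.1 RPKM), as were the members by their mean.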

How the data were processed

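RNA from sorted cells was made into libraries with an ultra-low-input kit (oligo-dT priming) and sequenced as paired reads of 100 bases. The authors aligned them to the mouse genome mm9 on a commercial platform, and the deposited files give 1 RPKM value per gene and library. The annotation, the counting rule and the treatment of reads with several matches are not given in the sources used here. Count models were not applied to these normalized values. Depth was estimated from the steps between low RPKM values with exon lengths of GENCODE M1, and estimated reads cover counting error only.

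Groups were taken from the labels, and normal LT replicates were numbered in the order given. The members and gene lists were chosen with earlier results of these data known. Values were compared on log2(RPKM + 1), a scale that understates changes of low genes, with limma 3.58.1 in R 4.3.3 (intensity trend), over the 12561 genes whose 8 values summed to more than 1 RPKM and with Benjamini-Hochberg adjustment over all of them (threshold 0.05). The residual degrees of freedom were 4 (CML against normal stem cells), 2 (LT alone), 5 (KLS- against stem), 3 (ST against LT) and 4 (interaction). The steps were tested on simulated data. Genes named were up to 12 members past the threshold in each direction, the 3 highest and 3 lowest members of each comparison, the 5 highest and 5 lowest by mean RPKM, members with the roles described, and of each other list the 2 largest changes past the threshold in each direction. Further members were chosen after their values were seen. Copies, start sites and promoter words were read with Python 3.11.15 from the mm9 genome and RefSeq promoters. Alternatives covered the pseudocount, the filter, 4 scalings, the trend, the libraries of each fit and leaving out each library in turn. Some genes that this rule would name are not reported here, and figures by gene leave them out.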

Additional observations from a re-analysis of the deposited data

How the results depend on the processing

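No paired analysis was possible because only the LT-CML labels carry replicate numbers. In the 4 comparisons without a called member, no alternative gave any. For KLS- against stem cells the count of higher members moved from 15 to 7 with no filter, 3 with quantile normalization, 7 with upper-quartile scaling, 29 with median-ratio scaling, 8 with LT libraries alone as stem cells and 7 when scaled to the member median (chosen after seeing the data). Over all genes, calls in either direction ran from 4082 to 5468 under these settings (5231 in the main fit). Without 1 stem library at a time the count of higher members ran from 9 to 18, beside 4518 to 5275 of all genes called. The count of lower members moved from 0 to 1 with a pseudocount of 0.1 (Rpl39l, few reads), 25 with quantile normalization, 6 when scaled to the member median and 1 without both LT replicates 2 (both chosen after seeing the data), and without 1 library at a time it ran from 0 to 1. The median log2 difference of the members, 0.19, was -0.18 with quantile normalization, in which the value for Rps2 turned to -0.17. The median interaction, 0.20, was -0.030 when scaled to the member median, which brings it near 0 by construction. Rplp0 between LT populations ran from -0.025 (without LT-CML replicate 1) to 0.32 (without LT-CML replicate 2). The causes were not tested. The summed level of the members, compared as log2 ratios (KLS- over stem 0.15, CML over normal stem -0.04), moved by less than the replicate SD of 0.19 under upper-quartile and median-ratio scaling and with core members alone. The interaction could not be fitted without a KLS- library. With at most 2 replicates in a group, SEs were near 0.15 on the log2 scale, and larger between LT populations and for the interaction. Differences of the size of the member medians are therefore not detectable gene by gene.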
